A study of Eriocheir sinensis with 2 samples.

Results

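Oxidative phosphorylation was followed in the Y-organ of the Chinese mitten crab, *Eriocheir sinensis*, through 50 unigenes out of the 47966 unigenes measured. A unigene is an assembled transcript sequence, and 13314 of them have an nr annotation, the name of the most similar known protein. The 50 members were chosen by the words of that name: names of cytochrome c oxidase, cytochrome b, NADH dehydrogenase, succinate dehydrogenase, ubiquinol-cytochrome c reductase or ATP synthase, with P450 enzymes, cytochrome b5 and vacuolar proton pumps left out. The words alone, and no measured value, make this rule. By name, 10 members are subunits encoded in mitochondrial DNA and 39 are nuclear subunits of complexes I to V, namely 18 of complex I, 2 of complex II, 2 of complex III, 6 of complex IV and 11 of complex V. The last member is an assembly factor. The words cytochrome c1 and ADP/ATP found 0 unigenes, and dropping hits to ciliates removed 0. The best hit lay in an arthropod genus for 44 members, and in Eriocheir itself for the 10 mitochondrially encoded ones. Member lengths ran from 219 to 2802 bp.

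C1 is the Y-organ sample of a group of 30 crabs whose eyestalks had been removed 48 h before. C0 is that of a group of 30 crabs left untreated over the same time. The paper does not state how many organs of a group went into its sample. All crabs weighed 5 to 6 g. Each sample gave 1 library, so there is no spread between replicates, and every test below compares the 2 libraries and not the conditions. No sham operation was named, so eyestalk loss and wounding cannot be told apart. In units of 1000, unigene reads summed to 3751 in C1 and 4152 in C0, and every member had reads in both libraries. The Y-organ label was checked on its defining markers. The unigene annotated as ecdysone biosynthesis protein stood at 19454 RPKM in C1 and 18807 RPKM in C0, where RPKM is reads per kilobase of unigene length, scaled to the library total.

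The respiratory chain passes electrons from NADH and succinate through complexes I, II, III and IV to oxygen and pumps protons across the inner mitochondrial membrane. Complex V, the ATP synthase, uses the returning protons to make ATP. A few core subunits are encoded in mitochondrial DNA and transcribed inside the organelle, while the others come from nuclear genes and are imported. The Y-organ makes ecdysteroid moulting hormones, several steps of which are carried out by mitochondrial P450 enzymes, and the eyestalk is the source of the peptide that restrains it.

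Nuclear subunits stood higher in C1 than in C0, and the mitochondrially encoded ones moved both ways. In samples of whole organs, more cells rich in mitochondria and more RNA per cell cannot be told apart. The log2 ratio used here is that of a unigene's share of the library's reads in C1 over C0. Counting only members whose C1 and C0 reads together reached 50, the median log2 ratio was 0.59 over 36 nuclear subunits and 0.21 over the 10 mitochondrially encoded subunits, against 0.20 over all 11398 unigenes with at least 50 reads. The median of all unigenes was lower at greater depth, 0.11 over the 1275 with at least 500 reads and -0.27 over the 175 with at least 5000. Of the mitochondrially encoded unigenes 9 had at least 5000 reads, with a median of 0.26. Scaling by the TMM factors of edgeR moved every log2 ratio by -0.17 and scaling by the median ratio moved it by -0.15, so values are best read against the median of all unigenes. With TMM factors the medians were 0.42 for nuclear subunits, 0.04 for mitochondrially encoded ones and 0.03 for all unigenes.

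The DEU rule asked for an adjusted p of at most 0.001 (exact two-sided binomial test, Benjamini-Hochberg over 47966 unigenes) and a log2 ratio beyond 1 in either direction. Of the 50 members, 6 were DEUs, all higher in C1. Over all unigenes 4.03% were DEUs, 2.32% higher in C1 and 1.7% lower. These shares are not matched for depth and cannot be compared directly with that of the members. At least 50 reads were reached by 47 of the 50 members, but by 11398 of the 47966 unigenes. No DEU had fewer than 16 reads in C1 and C0 together. With TMM factors or the median ratio 2 members remained DEUs, Unigene49437_A0A of complex I and Unigene19794_A0A of complex V. The other 4 then lay at log2 ratios of 0.93 to 0.99, just under the limit. Scaling also turned the balance over all DEUs. They were 1115 higher of 1931 with the summed reads, 730 higher of 1783 with TMM factors and 757 higher of 1746 with the median ratio.

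By the adjusted p alone, 24 of the 47 members with at least 50 reads were higher in C1 (51.1%), 2 were lower (4.26%) and 21 did not pass. Over all unigenes of that depth 13.4% were higher and 9.55% lower, and 61.3% had a log2 ratio above 0. The power of this rule grows with the reads of a unigene, and the nuclear subunits had a median of 307 reads over C1 and C0. Of the 36 nuclear subunits, 19 passed as higher (52.8%) and 0 as lower. Their log2 ratio was above the median of all unigenes in 32 of 36. In 27 the 95% interval, which covers counting error only, lay above 0, a limit below that median (0.20). The same count of intervals was not made over all unigenes.

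**Figure D1:**
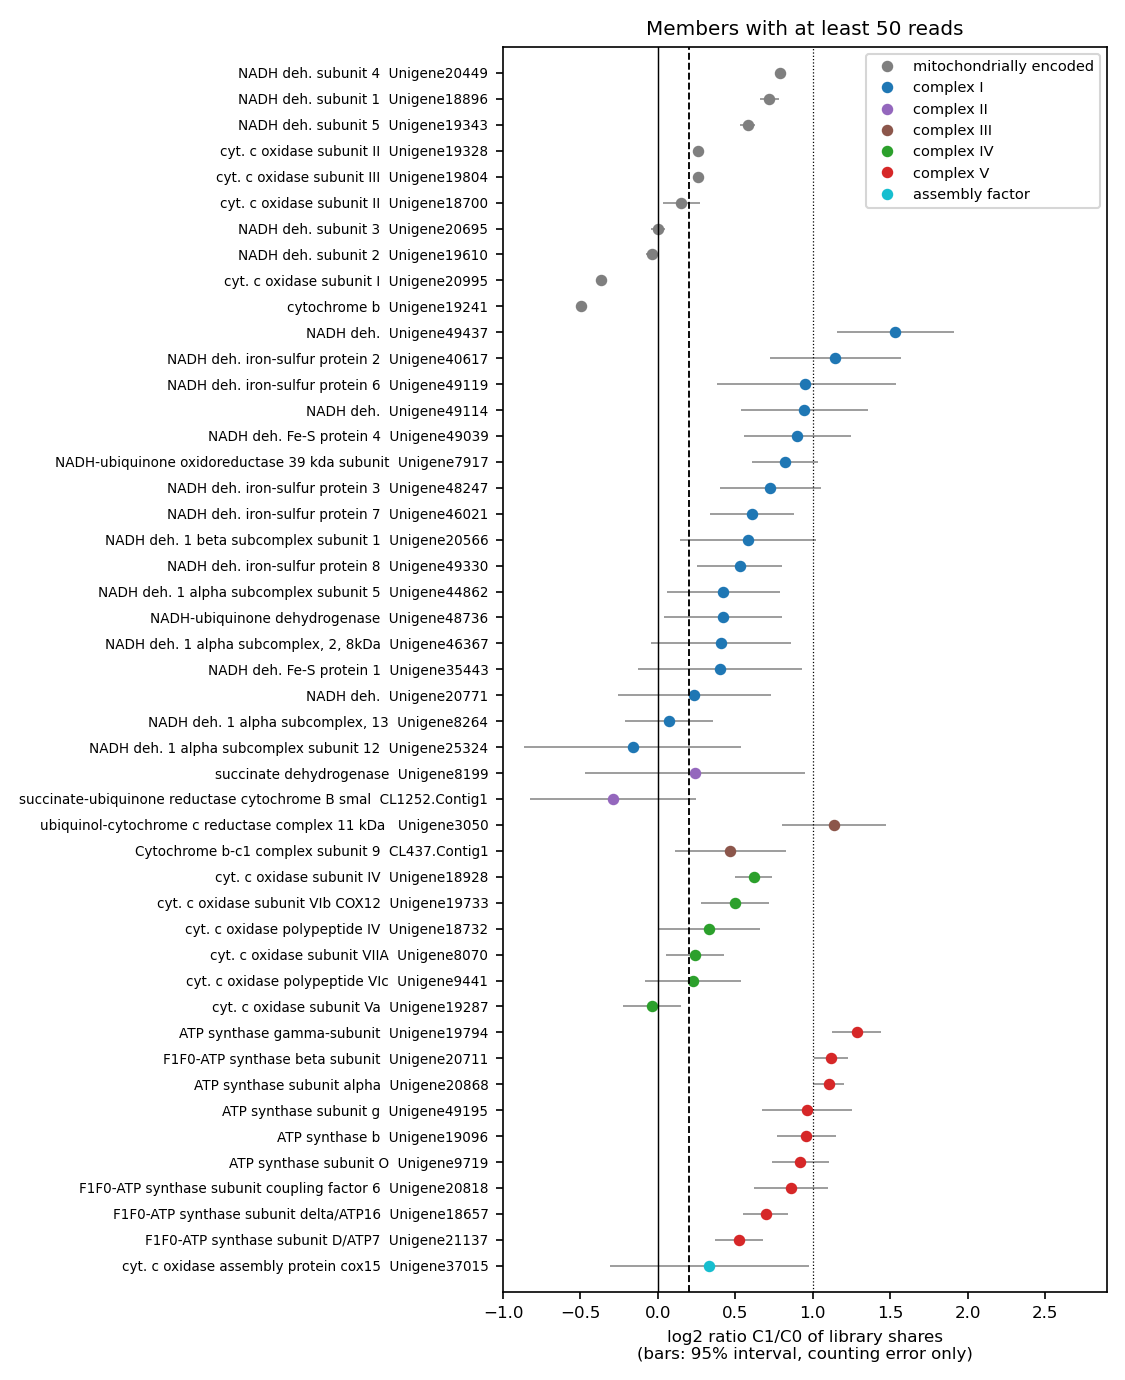
Log2 ratio C1 over C0 of the library share (x axis) for the 47 members with at least 50 reads, 1 row per unigene, coloured by group. Bars are 95% intervals for counting error, the dashed line is the median of all unigenes (0.20) and the dotted line the DEU limit of 1. The 9 complex V members lie between 0.52 and 1.28, to the right of the dashed line, while the mitochondrially encoded members spread from -0.50 to 0.79; with TMM factors all points shift by -0.17, and Unigene18700_A0A and Unigene8264_A0A change sign.

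The mitochondrially encoded subunits were the most abundant members. Together they took 442763 reads in C1, a share of 11.8% (95% Wilson interval 11.77 to 11.84%), and 529251 reads in C0, a share of 12.7% (12.71 to 12.78%). The log2 ratio of the sums was -0.11 (-0.12 to -0.10), where the sum over all unigenes is 0 by construction. Without cytochrome c oxidase subunit I it was 0.035 with the summed reads, and -0.13 with TMM factors. Summed and median values thus differ in sign for these 10 unigenes.

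Cytochrome c oxidase subunit I, the catalytic core of complex IV, was the most abundant of all members. Its unigene, Unigene20995_A0A (1606 bp), had 145477 reads and 24150 RPKM in C1, against 208024 reads and 31193 RPKM in C0, a log2 ratio of -0.37 (-0.38 to -0.36). Cytochrome b, the mitochondrially encoded core of complex III, had 78881 reads and 13202 RPKM in C1, against 123282 reads and 18637 RPKM in C0 (Unigene19241_A0A, 1593 bp). Its log2 ratio of -0.50 (-0.51 to -0.48) was the lowest of any member. These 2 unigenes were the members that fell by the adjusted p alone, and both also fell with the 5 other scalings tried.

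The other core subunits of complex IV went the other way. Subunit II, which carries the copper centre that accepts electrons from cytochrome c, had 48758 reads and 21171 RPKM in C1, against 45050 reads and 17669 RPKM in C0 (Unigene19328_A0A, 614 bp). Subunit III had 123311 reads and 21074 RPKM in C1, against 113935 reads and 17588 RPKM in C0 (Unigene19804_A0A, 1560 bp). Both had a log2 ratio of 0.26, or 0.09 with TMM factors, and passed the adjusted p as higher in C1. The median was 0.20 over all unigenes with at least 50 reads and -0.27 over those with at least 5000. The ratio of subunit II to subunit I in RPKM was thus 0.877 in C1 and 0.566 in C0, and that of subunit III to subunit I was 0.873 in C1 and 0.564 in C0. A second, short subunit II unigene (Unigene18700_A0A, 227 bp) had 1099 reads in C1 and 1096 in C0, with a log2 ratio of 0.15 (0.03 to 0.27) that did not pass (adjusted p = 0.104, exact binomial test) and turned to -0.02 with TMM factors. Whether these 2 unigenes are pieces of the same transcript was not tested. Nor was it tested whether a long unigene, such as that of subunit III, also holds sequence of neighbouring genes.

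Of the complex I core subunits of the mitochondrial genome 5 were present, and 3 of them rose. NADH dehydrogenase subunit 4 (Unigene20449_A0A, 1736 bp) had 14580 reads and 2239 RPKM in C1, against 9327 reads and 1294 RPKM in C0, with a log2 ratio of 0.79 (0.75 to 0.83). Subunit 1 (Unigene18896_A0A, 1193 bp) had 5324 reads and 1190 RPKM in C1, against 3580 reads and 723 RPKM in C0, with a log2 ratio of 0.72 (0.66 to 0.78). Subunit 5 (Unigene19343_A0A, 1797 bp) had 9059 reads and 1344 RPKM in C1, against 6715 reads and 900 RPKM in C0, with a log2 ratio of 0.58 (0.53 to 0.62). These 3 subunits passed the adjusted p and lay above the median of all unigenes with at least 50 reads. Subunit 2 (Unigene19610_A0A, 1064 bp) had 8118 reads in C1 and 9210 in C0, a log2 ratio of -0.04 (-0.08 to 0.01). Subunit 3 (Unigene20695_A0A, 460 bp) had 8156 reads in C1 and 9032 in C0, a log2 ratio of -0.00 (-0.04 to 0.04). Neither passed the adjusted p with the summed reads, and both passed as lower with TMM factors, at -0.20 and -0.17.

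**Figure D2:**
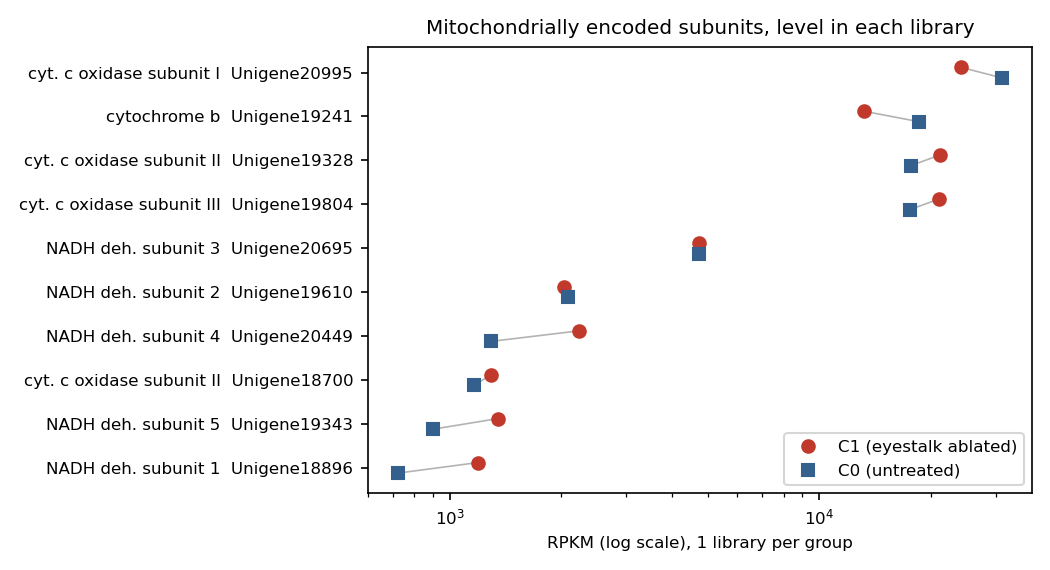
RPKM (x axis, log scale) of the 10 mitochondrially encoded unigenes, with C1 as red circles and C0 as blue squares, 1 library each. The highest unigene stood 20.3 times above the lowest in C1 and 43.2 times in C0. In C1, cytochrome c oxidase subunit I and cytochrome b lie left of their C0 values, while NADH dehydrogenase subunits 1, 4 and 5 lie right of theirs.

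Levels of these 10 unigenes lay closer together in C1. The highest RPKM was 20.3 times the lowest in C1 and 43.2 times the lowest in C0, and the ratio of cytochrome b to NADH dehydrogenase subunit 1 was 11.1 in C1 and 25.8 in C0. The ratio between unigenes within a library does not depend on the scaling. The log2 ratio of subunit 4 exceeded that of cytochrome b by 1.29 (95% interval 1.25 to 1.33, counting error). These are the highest and lowest log2 ratios of the 10 unigenes, and the interval does not allow for that choice. In the ancestral gene order of arthropod mitochondrial DNA, NADH dehydrogenase subunits 1, 4 and 5 lie on the minority coding strand and the other proteins found here on the majority strand. Grouped that way, which was done after the values were seen, the 3 minority-strand unigenes had log2 ratios of 0.58 to 0.79 and the 7 majority-strand unigenes -0.50 to 0.26. Their summed reads were 28963 in C1 and 19622 in C0 for the minority strand, and 413800 in C1 and 509629 in C0 for the majority strand. The strand of the *E. sinensis* genes was not looked up, and the library kit did not mark strand, so reads of overlapping transcripts from the 2 strands cannot be told apart. Library construction selected RNA with poly(A) tails, so a change in the tails of mitochondrial transcripts cannot be told apart from a change in their amount.

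Among the nuclear subunits, those of complex V rose together. The 11 unigenes of the ATP synthase included 9 with at least 50 reads, and all 9 rose by the adjusted p alone, with log2 ratios of 0.52 to 1.28 and a median of 0.96 (0.79 with TMM factors). Their group summed to 8872 reads in C1 and 4992 in C0, a log2 ratio of 0.98 (0.93 to 1.03). Among the 9 with at least 50 reads, the highest RPKM was 2.32 times the lowest in C1 and 2.10 times in C0.

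The 3 complex V DEUs were subunits of F1, the catalytic head with its central stalk. The alpha subunit (Unigene20868_A0A, 2077 bp) had 2324 reads and 298 RPKM in C1, against 1198 reads and 139 RPKM in C0, which is 2.15-fold higher with a log2 ratio of 1.10 (1.002 to 1.20; adjusted p = 6.83e-106, exact binomial test). The beta subunit, which holds the catalytic sites (Unigene20711_A0A, 2802 bp), had 1957 reads and 186 RPKM in C1, against 999 reads and 85.9 RPKM in C0, a log2 ratio of 1.12 (1.01 to 1.23; adjusted p = 4.47e-91, exact binomial test). The ratio of alpha to beta in RPKM was 1.60 in C1 and 1.62 in C0. The gamma subunit, the rotating central stalk (Unigene19794_A0A, 1093 bp), had 996 reads and 243 RPKM in C1, against 453 reads and 99.8 RPKM in C0. It had the highest log2 ratio of the complex, 1.28 (1.12 to 1.44; adjusted p = 9.45e-58, exact binomial test), and its ratio to alpha was 0.814 in C1 and 0.719 in C0. With TMM factors alpha and beta, at 0.93 and 0.95, were no longer DEUs, and gamma, at 1.11, still was.

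The other ATP synthase subunits rose by less than the DEU limit. The delta subunit of the central stalk (Unigene18657_A0A) had 944 reads in C1 and 645 in C0, a log2 ratio of 0.70. Subunit O, which joins the head to the peripheral stalk (Unigene9719_A0A), had 629 reads in C1 and 368 in C0, at 0.92. Subunit b of that stalk (Unigene19096_A0A) had 608 reads in C1 and 346 in C0, at 0.96. The peripheral stalk also holds coupling factor 6 (Unigene20818_A0A), with 364 reads in C1 and 222 in C0 and a log2 ratio of 0.86, and subunit d. Subunit d (Unigene21137_A0A, 1411 bp) had the smallest shift of the 9, with 781 reads and 148 RPKM in C1, against 602 reads and 103 RPKM in C0, a log2 ratio of 0.52 (0.37 to 0.68; adjusted p = 8.62e-10, exact binomial test). Subunit g of the membrane part (Unigene49195_A0A) had 261 reads in C1 and 148 in C0, at 0.96. The remaining 2 unigenes were too shallow to compare: a 332 bp unigene of the beta subunit had 5 reads in C1 and 7 in C0, and a 219 bp unigene annotated as subunit s-like had 3 reads in C1 and 4 in C0, an interval of -2.26 to 1.73 on the log2 scale.

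Complex I, the NADH dehydrogenase, gave 18 nuclear unigenes, 17 of them with at least 50 reads. Of these, 16 had a positive log2 ratio and 7 passed the adjusted p, all higher in C1, around a median of 0.58 (0.41 with TMM factors). Those that passed numbered 5 with the clean reads and 4 with TMM factors or the median ratio. The group summed to 2660 reads in C1 and 1871 in C0, a log2 ratio of 0.65 (0.57 to 0.74). Among the 17, the highest RPKM was 6.21 times the lowest in C1 and 4.87 times in C0.

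The 2 complex I DEUs had fewer reads than those of complex V. Unigene49437_A0A (611 bp, annotated only as a putative NADH dehydrogenase) had 204 reads and 89.0 RPKM in C1, against 78 reads and 30.7 RPKM in C0. Its log2 ratio of 1.53 (1.16 to 1.91; adjusted p = 1.67e-15, exact binomial test) was the highest of all members and stayed a DEU with TMM factors, at 1.36. Another unigene of the same name (Unigene20771_A0A, 519 bp) had 67 reads in C1 and 63 in C0, at 0.23 (-0.26 to 0.73), and did not pass. Iron-sulfur protein 2, a core subunit near the quinone site (Unigene40617_A0A, 405 bp), had 134 reads and 88.2 RPKM in C1, against 67 reads and 39.8 RPKM in C0, a log2 ratio of 1.14 (0.73 to 1.57; adjusted p = 1.59e-06, exact binomial test). It fell under the limit with TMM factors, at 0.97.

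Another 5 complex I unigenes passed the adjusted p alone. The most abundant was the 39 kDa subunit, an accessory protein (Unigene7917_A0A, 1473 bp), with 464 reads and 84.0 RPKM in C1, against 291 reads and 47.6 RPKM in C0, and a log2 ratio of 0.82 (0.61 to 1.03; adjusted p = 6.91e-13, exact binomial test). Iron-sulfur protein 7 (Unigene46021_A0A), which binds the last iron-sulfur cluster before the quinone, had 256 reads in C1 and 186 in C0, at 0.61. The core iron-sulfur protein 3 (Unigene48247_A0A) had 184 reads in C1 and 123 in C0, at 0.73. The accessory Fe-S protein 4 (Unigene49039_A0A) had 179 reads in C1 and 106 in C0, at 0.90. Unigene49114_A0A, annotated only as NADH dehydrogenase, had 129 reads in C1 and 74 in C0, at 0.94. With TMM factors iron-sulfur proteins 3 and 7 and Unigene49114_A0A no longer passed. Iron-sulfur protein 8 (Unigene49330_A0A) had 245 reads in C1 and 188 in C0 and did not pass (log2 ratio 0.53, adjusted p = 0.0025, exact binomial test).

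Smaller ratios were found in 3 accessory subunits of complex I. Alpha subcomplex subunit 13 (Unigene8264_A0A) had 192 reads in C1 and 202 in C0, a log2 ratio of 0.07 (-0.21 to 0.36) that changes sign with TMM factors. Alpha subcomplex subunit 12 (Unigene25324_A0A) had 29 reads in C1 and 36 in C0, at -0.16 (-0.86 to 0.53), the lowest of the complex. Fe-S protein 5 (Unigene18666_A0A) had 15 reads in C1 and 16 in C0, at 0.06 (-0.94 to 1.05). Reads covered only 14.1% of its length in C1 and 13.7% in C0, while the other 17 nuclear complex I unigenes were covered over at least 86.2%.

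Complexes II and III each gave 2 nuclear unigenes. In complex II, succinate dehydrogenase, which also serves the TCA cycle, the cytochrome b small subunit (CL1252.Contig1_A0A) had 48 reads in C1 and 65 in C0, a log2 ratio of -0.29 (-0.83 to 0.24). Its second unigene (Unigene8199_A0A) had 32 reads in C1 and 30 in C0, at 0.24 (-0.47 to 0.95). Neither passed. Both together had 80 reads in C1 and 95 in C0, a log2 ratio of -0.10 (-0.53 to 0.33), an interval that lies below that of the complex I sum (0.57 to 0.74) and rests on 2 unigenes. In complex III, the 11 kDa protein (Unigene3050_A0A, 421 bp) was a DEU, with 211 reads and 134 RPKM in C1, against 106 reads and 60.6 RPKM in C0, a log2 ratio of 1.14 (0.80 to 1.48; adjusted p = 3.58e-10, exact binomial test), or 0.97 with TMM factors. Subunit 9 of the same complex (CL437.Contig1_A0A) had 140 reads in C1 and 112 in C0, at 0.47 (0.11 to 0.83; adjusted p = 0.0853, exact binomial test).

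Complex IV moved less than complex V. Its 6 nuclear unigenes summed to 2951 reads in C1 and 2502 in C0, a log2 ratio of 0.38 (0.31 to 0.46), an interval that does not meet that of complex V, and 2 of the 6 passed the adjusted p. Subunit IV, a regulatory subunit (Unigene18928_A0A, 779 bp), was the most abundant, with 1320 reads and 452 RPKM in C1, against 951 reads and 294 RPKM in C0, and a log2 ratio of 0.62 (0.50 to 0.74; adjusted p = 2.43e-22, exact binomial test). Subunit VIb (Unigene19733_A0A) had 378 reads in C1 and 296 in C0, at 0.50, and no longer passed with TMM factors (0.33), the median ratio or the clean reads. Subunit Va (Unigene19287_A0A) had 439 reads in C1 and 499 in C0, at -0.04 (-0.22 to 0.15; adjusted p = 0.965, exact binomial test). Subunit VIIA (Unigene8070_A0A) had 484 reads in C1 and 454 in C0, at 0.24, and did not pass. The other 2 unigenes, polypeptides IV and VIc, had log2 ratios of 0.33 and 0.22 and did not pass either. The assembly factor cox15, which takes part in making heme A for this complex, had 41 reads in C1 and 36 in C0 (Unigene37015_A0A, log2 ratio 0.33, -0.31 to 0.98).

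**Figure D3:**
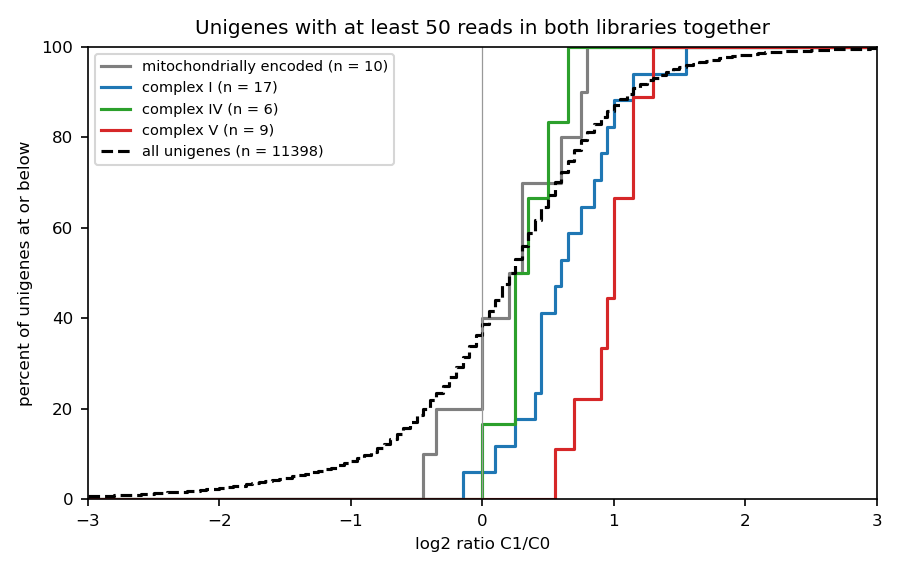
Percent of unigenes (y axis) at or below a given log2 ratio C1 over C0 (x axis), among unigenes with at least 50 reads, for 4 groups of members and, dashed, all 11398 unigenes. The curve of complex V lies to the right of all others up to its median of 0.96, and those of complex IV (median 0.28) and of the mitochondrially encoded unigenes (median 0.21) cross the dashed curve (median 0.20); with TMM factors all curves shift by -0.17.

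Levels of the 2 genetic origins differed within the same complex. Mitochondrially encoded subunit I of cytochrome c oxidase stood at 53.5 times the RPKM of nuclear subunit IV in C1 and 106 times in C0. For subunit III the ratio to subunit IV was 46.6 in C1 and 59.8 in C0. Both ratios used Unigene18928_A0A for subunit IV. The unigene named polypeptide IV (Unigene18732_A0A) stood lower, at 151 RPKM in C1 and 120 RPKM in C0, and would give larger ratios. Whether these 2 unigenes belong to the same gene was not tested. The median RPKM of the nuclear subunits was 84.0 in C1 and 56.4 in C0, and that of the mitochondrially encoded unigenes was 3483 in C1 and 3406 in C0.

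Other mitochondrial components were read from lists of names. Cytochrome c, the mobile carrier between complexes III and IV, had 524 reads in C1 and 517 in C0 (Unigene20209_A0A, log2 ratio 0.17, -0.01 to 0.34), did not pass, and came to -0.00 with TMM factors. The voltage-dependent anion channel, the main pore of the outer membrane, had 2356 reads in C1 and 2215 in C0 (Unigene20062_A0A, log2 ratio 0.24, 0.15 to 0.32) and passed the adjusted p with the summed reads, but not with the clean reads or with TMM factors (0.07). Of 15 TCA cycle unigenes, 10 had at least 50 reads, with a median log2 ratio of 0.42, 4 passed as higher and 1 as lower. Citrate synthase, which opens the cycle, had 712 reads in C1 and 452 in C0 (Unigene8239_A0A, log2 ratio 0.80). Mitochondrial malate dehydrogenase had 1407 reads in C1 and 1217 in C0 (Unigene9562_A0A, 0.36), and the list's 2 DEUs higher in C1 were cytosolic malate dehydrogenase (960 reads in C1, 525 in C0) and the small subunit of succinyl-CoA synthetase (300 reads in C1, 163 in C0). Their log2 ratios, both 1.02, fell under the DEU limit with TMM factors, at 0.85 and 0.86, and with the clean reads, and mitochondrial malate dehydrogenase no longer passed with TMM factors. The 1 lower was a cytoplasmic isocitrate dehydrogenase unigene, with 19 reads in C1 and 60 in C0.

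Proteins of the mitochondrial ribosome, which translates the mitochondrially encoded subunits, had positive log2 ratios in all 14 unigenes with at least 50 reads (of 33 listed), where 61.3% of all unigenes were above 0, with a median of 0.64. One of them passed, ribosomal protein S24 (Unigene49943_A0A), with 121 reads in C1 and 62 in C0. Its log2 ratio of 1.11 made it a DEU, and 0.94 with TMM factors did not. The 4 import unigenes with at least 50 reads (of 6) had a median of 0.45 and none passed by the exact binomial test at an adjusted p of 0.001, the lowest adjusted p being 0.152. Among 12 mitochondrial carriers, 2 had that depth, and mitochondrial carrier homolog 2-like was a DEU (Unigene46243_A0A, 332 reads in C1, 172 in C0, log2 ratio 1.09), which it was no longer with TMM factors (0.92). Names of mitochondrial DNA maintenance and transcription factors were found on 0 unigenes.

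**Figure D4:**
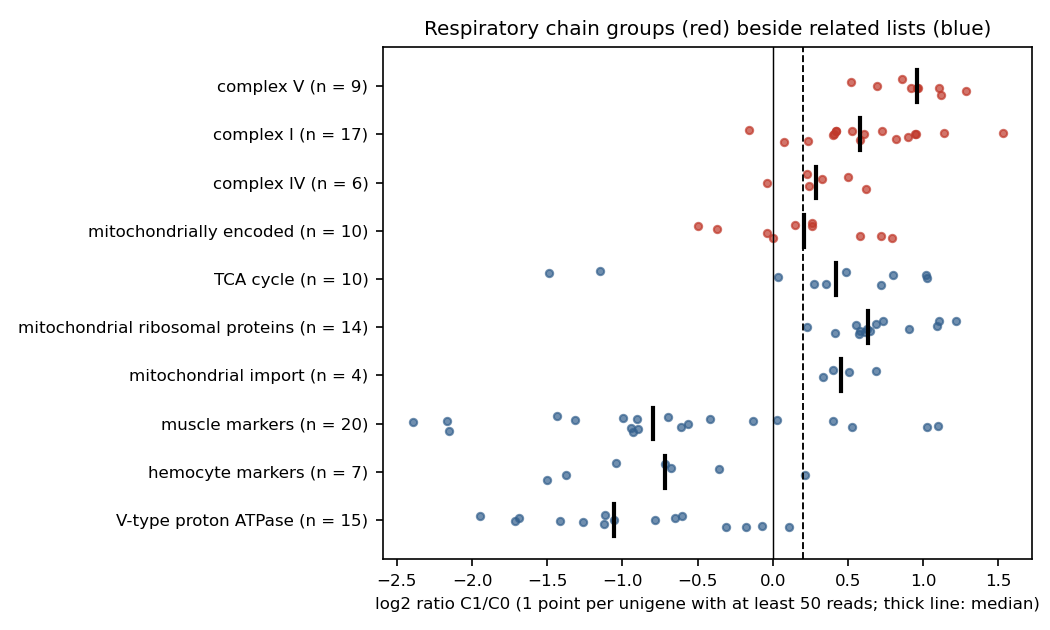
Log2 ratio C1 over C0 (x axis) of each unigene with at least 50 reads, for 4 groups of members (red) and 6 related lists (blue). Thick lines are medians and the dashed line is the median of all unigenes, 0.20. Medians are 0.96 for complex V and 0.64 for mitochondrial ribosomal proteins, against -0.80 for muscle markers and -1.06 for V-type proton ATPase; with TMM factors all points shift by -0.17.

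Markers of other sources of RNA also differed between the libraries, and their part in the values above was not tested. Muscle markers had at least 50 reads in 20 of 32 unigenes, of which 15 had negative log2 ratios and 10 passed as lower in C1, with a median of -0.80. Their summed share was 0.301% in C1 and 0.298% in C0, with arginine kinase at 8157 reads in C1 and 6274 in C0. Without it the share was 0.0833% in C1 and 0.146% in C0. The list includes 2 titin-like unigenes at 0 reads in C1 and 1 read each in C0. Hemocyte markers had 7 of 13 unigenes at that depth, 6 of them with negative log2 ratios, and summed to 0.0509% in C1 and 0.0710% in C0. Epidermis markers summed to 0.110% in C1 and 0.0545% in C0, with the cuticle protein AMP9.3 at 3888 reads in C1 and 1939 in C0. The other 20 summed to 220 reads in C1 and 324 in C0. The 9 hepatopancreas markers summed to 0.0119% in C1 and 0.0115% in C0, and 1 of them had at least 50 reads. Unigenes with a ciliate best hit took 0.274% of reads in C1 and 0.783% in C0. Leaving their reads out of the library size moved the log2 ratios of the members by -0.01. Of the Y-organ's own markers on the list, 3 of 4 had that depth. With the summed reads all 3 passed as higher, with log2 ratios of 0.05 to 1.16. With the clean reads, TMM factors or the median ratio 2 passed as higher and 1 as lower. The 1 lower was the ecdysone biosynthesis protein (Unigene19254_A0A), at 0.05 with the summed reads. This list does not cover every step of ecdysone synthesis. It lacks the unigene of the step that starts from cholesterol, which the paper reports as down-regulated after eyestalk ablation. The paper lists Unigene19254_A0A as up-regulated, while here it was no DEU. Unigene1867_A0A (dib), also up-regulated in the paper, was a DEU here at 1.16 with the summed reads, but not with TMM factors.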

How the data were processed

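RNA of the Y-organ samples was sequenced by the authors as single-end reads, 1 library per group, after selection with oligo(dT) beads. Clean reads were mapped by the authors with SOAPaligner/soap2, allowing 1 or 2 mismatches, to previously assembled unigenes of the species. The aligner's version is not given in the sources used here. Deposited for each unigene were the raw count of reads that mapped to a single place, the RPKM that the authors calculated from it, and the percent of the unigene length covered by reads. Columns with the authors' own log2 ratio, P-value and FDR hold their comparison and were not used. Unmatched value columns numbered 0, and 0 identifiers matched the RefSeq gene table, so no coordinates are given.

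The members and the lists were chosen with earlier results of these data known. The test on the counts was exact, binomial and two-sided, and set a unigene's C1 reads against the share that C1 took of the reads of all unigenes (47.46%), with Benjamini-Hochberg adjustment over 47966 unigenes. DEUs needed an adjusted p of at most 0.001 and an absolute log2 ratio above 1 after 0.5 read was added to each library. A test with replicates could not be run on 1 library per group. Intervals (95%) are Wilson intervals, taken on how a unigene's reads divide between the libraries. They cover counting error only and treat each read as an independent molecule. PCR copies are not independent, so the intervals may be too narrow. Levels of different unigenes were compared in RPKM. Reads of near-identical copies may be lost or split by unique mapping, and a gene may be broken into several unigenes.

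Described with full values were each mitochondrially encoded unigene with at least 100 reads in 1 library, the 3 members of each nuclear group with the most reads, all DEUs, and the highest and lowest log2 ratio of each group. Complex I unigenes that passed the adjusted p and other complex IV and V subunits were added after their values were seen. Marker sums without their most abundant unigene and calls of the related lists under other scalings were added after seeing the data, and a tubulin polyglutamylase whose name holds the letters of amylase was taken out of the hepatopancreas list. The test was checked on simulated counts that held counting error alone, so the check does not bear on spread between replicates. Alternatives were 5 other library sizes (clean reads, TMM, median ratio, without mitochondrially encoded unigenes, without ciliate hits), Fisher's exact test, edgeR's exact test with an assumed coefficient of variation, other read minimums, another fold limit, and other choices of members. Python 3.11.15, numpy 2.4.6, scipy 1.17.1, pandas 2.3.3, matplotlib 3.10.9, R 4.3.3 and edgeR 4.0.16 were used.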

Additional observations from a re-analysis of the deposited data

How the results depend on the processing

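No paired analysis was possible because each group has 1 library, and leaving out a replicate was not possible for the same reason. The count of 6 DEUs among the members was 2 with TMM factors, 2 with the median ratio, 19 with a limit of 1.5-fold and 3 when only members with a GO term of the chain were kept, a choice made after seeing the data. It was 6 with the clean reads, with Fisher's exact test and with a minimum of 10 reads. With edgeR's exact test and an assumed coefficient of variation, which stands in for the unmeasured spread between replicates, it was 5 at 0.1, 0 at 0.2 and 0 at 0.4, when 1237, 295 and 8 DEUs remained over all unigenes. The exact binomial test gave 26 members past the adjusted p alone, and edgeR's exact test gave 6 at 0.1, 0 at 0.2 and 0 at 0.4. With GO members alone the count was 9.

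The median log2 ratio of the mitochondrially encoded subunits, 0.21, was 0.13 with the clean reads, 0.037 with TMM factors, 0.059 with the median ratio and 0.26 without the short subunit II unigene. The log2 ratio of their sums, -0.11, was -0.18, -0.28 and -0.26 with these 3 scalings, -0.13 and -0.12 with library sizes without mitochondrially encoded unigenes and without ciliate hits, and 0.035 without the member with the most reads. That of the nuclear subunits, 0.77, was 0.70, 0.60 and 0.62 with the 3 scalings, 0.72 without the member with the most reads, 0.73 with 6 chain unigenes that the wording leaves out and 0.885 with GO members alone. Unigene18700_A0A turned to -0.018 with TMM factors. The scalings differ only in 1 constant added to every log2 ratio, and leaving out members changes which reads are summed.

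Of 29 single unigenes compared across scalings, 24 kept direction and side of the DEU limit with TMM factors and 25 with the median ratio, and all 29 with the other 3 library sizes. By the adjusted p alone, nuclear subunits higher in C1 numbered 19 with the summed reads, 16 with the clean reads and 15 with TMM factors or the median ratio. Mitochondrially encoded ones lower in C1 numbered 2, 3, 4 and 4 under these. The 3 members under 50 reads stayed out of the medians and of the counts by the adjusted p alone.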

Other observations

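A further 15 unigenes carry a GO term of the respiratory chain or of ATP synthase but have best hits whose names the word search did not find, many of them uncharacterised insect or water flea proteins. They were listed after the files were seen. Of the 14 with at least 50 reads, 14 had positive log2 ratios with a median of 0.48, 8 passed the adjusted p as higher in C1 and 3 were DEUs. With TMM factors 5 passed and 1 was a DEU, Unigene45522_A0A. The most abundant of the 3 was Unigene45522_A0A, with 666 reads in C1 and 323 in C0 and a log2 ratio of 1.19. Unigene49236_A0A had 541 reads in C1 and 293 in C0, at 1.03, and Unigene48169_A0A had 230 reads in C1 and 121 in C0, at 1.07. Unigene20794_A0A, annotated as NADH ubiquinone dehydrogenase, had 1374 reads in C1 and 1061 in C0, at 0.52 (0.40 to 0.64), and was more abundant than any nuclear complex I member.

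The wording missed 6 unigenes named as chain subunits, Unigene20794_A0A among them. Their log2 ratios were 0.16 to 0.52, where 61.3% of all unigenes with at least 50 reads were above 0. With TMM factors 5 of the 6 were positive, and 1 passed the adjusted p under either scaling. They include a further complex II unigene, the succinate dehydrogenase cytochrome b560 subunit (Unigene7947_A0A), with 111 reads in C1 and 108 in C0 and a log2 ratio of 0.19 (-0.19 to 0.57).

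The V-type proton ATPase, a rotary pump related to ATP synthase that spends ATP to acidify organelles or move ions, stood the other way. This list was chosen after values were seen. Of its 15 unigenes with at least 50 reads, 14 had negative log2 ratios (15 with TMM factors), with a median of -1.06. As lower in C1, 9 passed and 7 were DEUs. Over all unigenes of that depth 9.55% passed as lower, and 1.7% of all unigenes were DEUs lower in C1. A unigene under that depth, named subunit H (Unigene25373_A0A), went the other way. It had 35 reads in C1 and 13 in C0, a log2 ratio of 1.54 (0.67 to 2.48), and did not pass. Subunit B (Unigene9644_A0A) had 215 reads in C1 and 520 in C0, a log2 ratio of -1.13 (-1.36 to -0.90). The name of subunit A stands on several of these unigenes, and whether they are pieces of the same transcript was not tested.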
